A study of Bos taurus with 129 samples.

Results

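Peripheral blood mononuclear cells (PBMC) from cows with embryo mortality (EM) were compared with those from cows with a normal pregnancy (N) at day 16, in the experiment sequenced with 100 bp paired-end reads (E1). All libraries labelled PBMC, E1 and EM (3 libraries, S34 to S36) or N (7 libraries, S37 to S43) were taken, 10 libraries and 7.75% of the samples of the series. A further 5 PBMC libraries of non-pregnant (NP) cows entered the fit to share its estimate of the spread. They thereby also entered its gene filter and scaling, but not the contrast. The 2 libraries whose labels name both endometrium and PBMC (S32 and S33) were left out. The series also holds conceptuses, endometrium and corpus luteum, and a second PBMC experiment with 75 bp single-end reads (E2; 6 EM, 9 N and 7 NP libraries), which was read beside E1. The animals are Bos taurus and carry no transgene or treatment in the labels. The methods, written for the E2 conceptuses, describe lactating multiparous Holstein cows inseminated at a fixed time and flushed at day 16, whose pregnancy was classed by the colour, translucency and length of the recovered conceptus. How PBMC were isolated, how the E1 cows were classed, their ages, and whether a cow gave 1 library are not given in the sources used here, so p-values measure the spread between these libraries.

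PBMC are the lymphocytes (T, B and natural killer cells) and monocytes of the blood, separated from granulocytes and red cells. In ruminants the elongating conceptus secretes interferon tau, which signals pregnancy to the mother, and interferon-stimulated genes such as ISG15, MX1, MX2 and RSAD2 respond to it in the uterus and in circulating leukocytes. T cells, natural killer cells and monocytes carry the tolerance and the cytotoxicity studied at the maternal and fetal interface, which is why blood is sampled when pregnancies fail.

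The defining markers were present. Per kilobase of exon, CD3E of T cells had a mean of 443 CPM (counts scaled to the library size) in EM and 221 in N, CD79A of B cells 542 and 982, and CD14 of monocytes 10.4 and 6.14. Total counts ran from 8666315 to 10575682 in EM and from 4648644 to 13690596 in N. The mitochondrially encoded genes found by symbol, at most 8 of the 13, took 4.45% to 13.6% of counts in EM and 6.42% to 20.7% in N. Among the 11 trophoblast markers found, 7 had no count in any EM or N library, and the endometrial epithelium markers summed to at most 10.5 CPM. Markers of cells that PBMC should hold few of were measured: platelet markers summed to 3600 to 8350 CPM in EM and 1150 to 9050 in N, granulocyte markers to 1690 to 2030 and 401 to 4150, and erythroid markers to 2080 to 2870 and 610 to 6830. The NP library S47 stood apart, with 94.5% of its counts in 10 genes and 72.1% in the mitochondrially encoded genes found. Results are therefore given with and without it where they differ.

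No gene passed the adjusted threshold. Of 11501 genes tested with the quasi-likelihood test of edgeR, 0 (0%) had a Benjamini-Hochberg adjusted p under 0.05, the smallest being 0.078. At an unadjusted p under 0.05, 420 genes (3.65%) had higher values in EM and 338 (2.94%) lower values. Library ranges of EM and N were apart in 82 genes higher in EM (0.713%) and in 132 lower in EM (1.15%). The median log2 fold change over all genes was -0.08, and all fold changes are EM minus N. DESeq2 called 2 genes (0.0174%) with higher and 4 (0.0348%) with lower values in EM, with 374 and 463 genes at an unadjusted p under 0.05. Without the N library S43 edgeR called 16 of 11387 genes (0.141%), all higher in EM, and without the EM library S34 it called 1. Without S47 it called 0, with 578 genes higher and 336 lower at an unadjusted p under 0.05. With EM and N alone edgeR called 0 of 11203 genes, the smallest adjusted p being 0.7. The values of single genes below are therefore descriptions of these libraries. Calls are named where they were made, and in simulated data 24 of 136 DESeq2 calls were false.

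**Figure D1:**
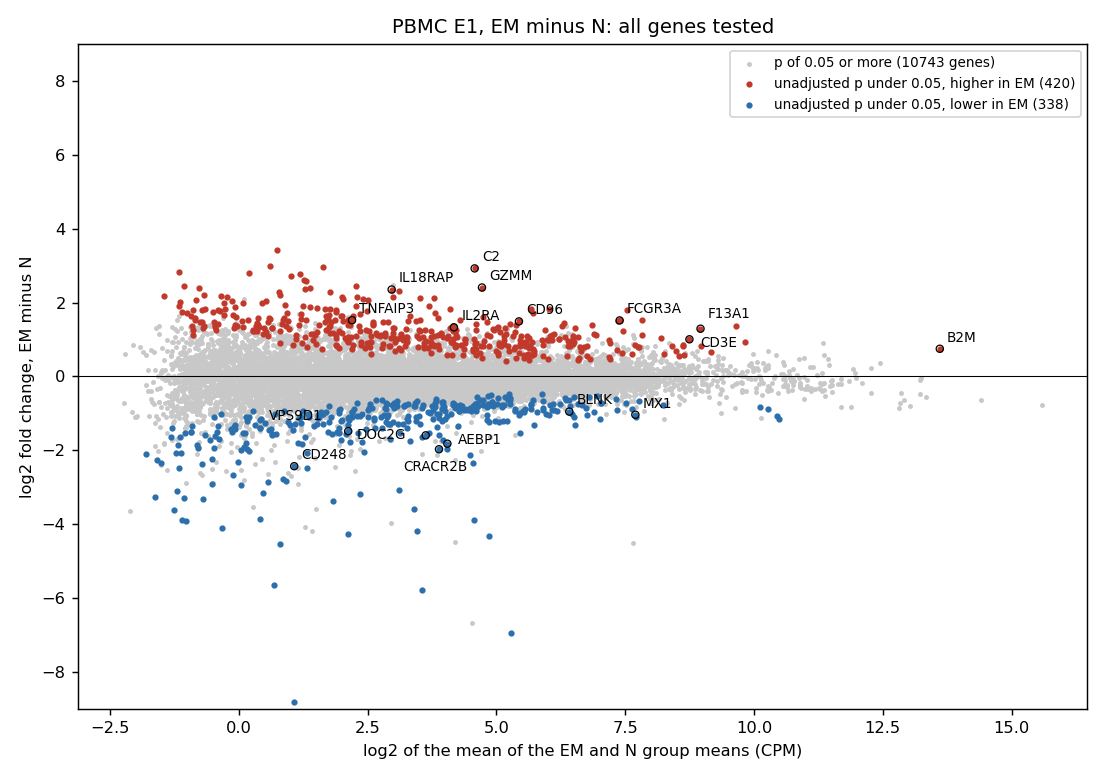
Each point is 1 of the 11501 genes tested in PBMC E1. The horizontal axis is the log2 of the mean CPM of the EM and N groups, the vertical axis the log2 fold change of EM minus N from edgeR. Red points (420 genes) and blue points (338 genes) had an unadjusted p under 0.05, and no gene passed the adjusted threshold. Among the labelled genes IL18RAP, GZMM and CD96 lie above 0, and BLNK, MX1 and AEBP1 below it.

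The genes that DESeq2 called were C2, ENSBTAG00000014795, AEBP1, VPS9D1, DOC2G and CD248, of which the unnamed gene falls outside the rule for naming genes and was chosen after its values were seen. C2, a serine protease of the classical complement pathway (UMD3.1, chr23:27231725-27243367), had 13.01, 86.8 and 26.8 CPM in the EM libraries S34, S35 and S36. The N libraries had 1.59 at the lowest, 2.93 at the median and 12.4 at the highest. All 3 EM libraries were above all 7 N libraries, with S34 closest to them, and the log2 fold change was 2.92 ± 0.61 (SE; edgeR adjusted p = 0.462). In DESeq2 its adjusted p was 0.0158. The NP libraries without S47 had 3.89 to 11.8 CPM, within the range of N.

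ENSBTAG00000014795, described in the table as an uncharacterized protein (UMD3.1, chr4:49945497-49946378), had the smallest p of all genes. It had 0.651, 1.42 and 7.12 CPM in EM and 0.178 to 0.366 in N, without overlap. Its log2 fold change was 3.42 ± 0.55 (SE), with an adjusted p of 0.078 in edgeR and 0.00985 in DESeq2, and it was the gene that edgeR called without S34 (adjusted p = 0.0155). S36 alone was several times higher than the other EM libraries, and the gene stood at less than 1 CPM in 8 of the 10 libraries.

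The other 4 genes called by DESeq2 were lower in EM. DOC2G, which encodes a C2 domain protein (UMD3.1, chr29:46114978-46119340), had 6.51, 5.01 and 6.88 CPM in EM and 10.8, 17.1 and 25.3 CPM in N (lowest, median and highest). AEBP1, which encodes adipocyte enhancer-binding protein (UMD3.1, chr4:77881913-77891706), had 10.2, 4.84 and 6.73 CPM in EM against 12.1, 24.7 and 47.01 in N. VPS9D1 (UMD3.1, chr18:14625180-14634572) had 2.603, 2.09 and 2.19 CPM in EM against 4.28, 6.27 and 10.7 in N. CD248, which encodes endosialin, a surface protein of stromal cells and pericytes (UMD3.1, chr29:45016284-45018614), had 0.651, 0.668 and 0.626 CPM in EM against 1.10, 2.79 and 6.35 in N. In each of the 4 genes the groups did not overlap, and in AEBP1 S34 lay closest to the lowest N library. Their log2 fold changes from edgeR were -1.60 ± 0.36 for DOC2G, -1.82 ± 0.41 for AEBP1, -1.48 ± 0.35 for VPS9D1 and -2.43 ± 0.57 for CD248 (SE), all with an adjusted p of 0.462.

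**Figure D2:**
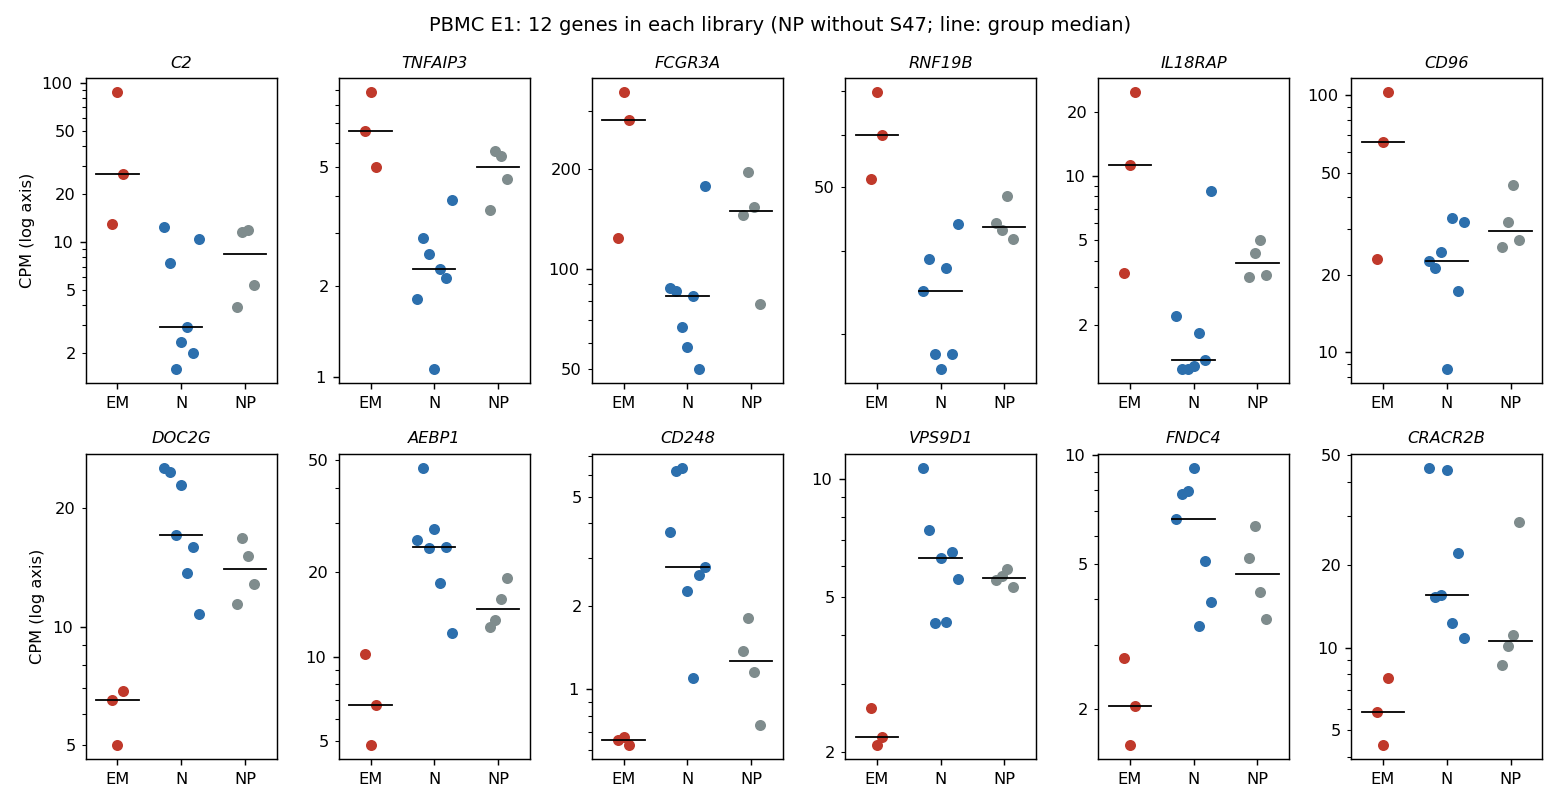
CPM on log axes of 12 genes in each library of PBMC E1, red for EM (3 libraries), blue for N (7) and grey for NP (4, without S47), with a line at each group median. In C2, TNFAIP3 and RNF19B and in all 6 genes of the lower row the EM and N libraries do not overlap. In FCGR3A, IL18RAP and CD96 the EM library S34 lies within the N range, S43 being the highest N library for the first and second of these.

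The 12 named genes with the smallest p and higher values in EM included C2. TNFAIP3, which encodes the NF-kB inhibitor A20, had 6.59, 8.85 and 5.01 CPM in EM and at most 3.88 in N. RNF19B, an E3 ubiquitin ligase, had 51.6, 69.6 and 60 CPM in EM and at most 44.04 in N, and both genes separated the groups fully. FCGR3A, the Fc receptor CD16 of natural killer cells and some monocytes, had 123.95, 341 and 282 CPM in EM and 49.8, 82.9 and 178 in N, where S43 was the 1 library inside the EM range. IL2RA, the alpha chain of the interleukin 2 receptor, had 21.8, 41.5 and 14.5 CPM in EM against 6.19, 9.53 and 17.7 in N. Again 6 of the 7 N libraries were below every EM library and S43 was not.

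IL18RAP, the accessory chain of the interleukin 18 receptor, and CD96, a receptor of T and natural killer cells, differed among the EM libraries. IL18RAP had 3.50, 11.3 and 24.6 CPM in EM against a median of 1.36 and a maximum of 8.48 in N. CD96 had 23.02, 66.04 and 102.9 CPM in EM against a median of 22.5 and a maximum of 33.2 in N. S34 lay within the N range in both, while S35 and S36 lay above it. RGS1, which restrains G protein signalling in lymphocytes, had 9.27, 30.97 and 2.97 CPM in EM against a maximum of 6.54 in N, so here S36 was the EM library inside the N range. PRDM1, the plasma cell and effector T cell factor Blimp-1, had 27, 73.8 and 30.98 CPM in EM and 14.02, 16.2 and 31.2 in N. The remaining 3 were CA2 (carbonic anhydrase), MT2 (a metallothionein) and BACE2 (an aspartyl protease), with log2 fold changes of 2.61, 1.91 and 2.39. For the 12 genes the log2 fold changes ran from 0.83 to 2.92, each with an adjusted p of 0.462.

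The 12 with the smallest p and lower values in EM held the 4 genes above, FNDC4, NUPR1L, CRIP3, EXTL1, LRP2BP, C9H6orf163 and the histone genes HIST1H2AC and HIST1H1D. Histone genes have near-identical copies between which reads can be split, so their values are uncertain. FNDC4 had 2.77, 1.59 and 2.03 CPM in EM against 3.39, 6.68 and 9.22 in N, without overlap. Of these 12 genes CRIP3 alone had EM and N libraries that overlapped. In FNDC4 the NP libraries without S47, at 3.53 to 6.37 CPM, lay within the N range.

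Genes were also ranked by fold change where the groups were apart and the higher one reached 5 CPM. Higher in EM were ADGRE3 (an adhesion receptor of myeloid cells, log2 fold change 1.79), ANXA3 (an annexin of neutrophils and monocytes, 1.72), ARHGAP31 (a GTPase-activating protein, 1.63) and FASLG (the Fas ligand of cytotoxic cells, 1.63). C3AR1 (the C3a receptor, 1.41), KLF4 (a transcription factor of monocytes, 1.38), SGK1 (a glucocorticoid-induced kinase, 1.38) and F13A1 (the coagulation factor XIII A chain of platelets and monocytes, 1.29) followed. F13A1 had 536, 975 and 612 CPM in EM and 102.4, 200.2 and 508 in N, the highest again being S43. Lower in EM were CRACR2B (-1.97), IL23A (the specific chain of interleukin 23, -1.85), ADAM11 (-1.54), HES1 (a target of Notch, -1.30) and TNFRSF13C (the BAFF receptor of B cells, -1.24). IL23A had 2.03, 1.59 and 1.41 CPM in EM and 2.73, 3.48 and 22.5 in N, so its fold change of -1.85 (edgeR adjusted p = 0.77) rested on S37, without which it was -0.98.

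T cell genes held the most members with an unadjusted p under 0.05 among the cell type lists. Of 23 tested T cell markers, 14 had an unadjusted p under 0.05 with higher values in EM and 0 with lower values, beside 3.65% and 2.94% of all genes. The median log2 fold change of the list was 0.94, beside -0.08 for all genes, and 22 of 23 were above 0. In bulk libraries more (or fewer) cells of a type and more (or less) RNA per cell cannot be told apart. CD3E, a chain of the T cell receptor complex, had 370, 611 and 740 CPM in EM and 129.2, 313 and 403 in N, with a log2 fold change of 1.00 ± 0.31 (SE; edgeR adjusted p = 0.522). S34 was below the highest N library and above 5 of the 7. CD8A, the co-receptor of cytotoxic T cells, had 49.4, 104.8 and 182 CPM in EM against 26.2, 39.3 and 73.9 in N. IL7R, the receptor that keeps naive and memory T cells alive, had 13.9, 42.2 and 8.53 CPM in EM against 3.099, 5.21 and 13.1 in N. CD28, the costimulatory receptor, had 2.11, 4.42 and 3.21 CPM against 0.651, 0.834 and 2.56. CD4 had 26.6, 71.97 and 42.4 CPM in EM and 5.14 to 85.95 in N, with a log2 fold change of 0.61 (edgeR adjusted p = 0.939). CD5 was the 1 T cell marker below 0, with -0.12.

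The mean log2 CPM over the 23 T cell markers was 5.48, 6.31 and 5.87 in the EM libraries. It was 3.95 at the lowest (S40), 5.03 at the median and 5.48 at the highest (S43) in N, just below S34. The NP libraries without S47 had 5.03 to 5.57, so 3 of the 4 lay above S34 and all 4 below S35 and S36. Leaving out S34, S35 or S36 gave a median log2 fold change of the list of 1.18, 0.80 and 0.80, in that order.

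B cell genes lay on the other side. All 17 tested B cell markers had a log2 fold change below 0, with a median of -0.78. An unadjusted p under 0.05 with lower values in EM was met by 6 of 17, beside 2.94% of all genes, and with higher values by 0. The 6 were VPREB3 (-1.64), a partner of the pre-B cell receptor, TNFRSF13C (-1.24), BLNK (-0.95), the B cell linker protein, FCRL1 (-0.91), EBF1 (-1.73), a transcription factor of the B lineage, and FCRLA (-0.92). BLNK had 75.6, 52.3 and 46.5 CPM in EM and 53.9, 128.6 and 152 in N, where 5 of 7 libraries were above every EM library. TNFRSF13C had 6.75, 2.17 and 5.32 CPM in EM and 6.91, 10.6 and 21.2 in N, without overlap. The antigen receptor chain CD79A had 733, 393 and 568.1 CPM in EM and 658, 883 and 1630 in N (log2 fold change -0.86, edgeR adjusted p = 0.783). MS4A1, which encodes CD20, had 247, 137 and 86.3 CPM in EM and 129.5, 208 and 326 in N (-0.53, edgeR adjusted p = 0.891). The mean log2 CPM of the list was 5.90, 5.20 and 5.21 in EM and 5.76, 6.28 and 6.51 in N, where S43 was the 1 N library below S34.

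Natural killer and cytotoxic markers followed the T cell markers in S35 and S36 but not in S34. Of 16 tested, 7 had an unadjusted p under 0.05 with higher values in EM and 0 with lower values. Over all genes these shares were 3.65% and 2.94%. The median log2 fold change was 0.96, beside -0.08 for all genes, with 14 members above 0 and 2 (TBX21 and KLRD1) below it. Without S36 the median was 0.31. GZMM, a granzyme, had 3.74, 19.9 and 109.4 CPM in EM and 2.49, 7.32 and 13.9 in N. CTSW, a protease of cytotoxic cells, had 74.3, 199 and 736 CPM in EM and 44.9, 103.4 and 246 in N. In both, S36 held the highest value of the 10 libraries and S34 lay below the N median. The natural killer receptor NCR1 had 2.11, 9.10 and 25.7 CPM in EM and 0.907 to 22.2 in N (log2 fold change 0.55, edgeR adjusted p = 0.944). KLRD1 had 2.11, 5.18 and 3.21 CPM in EM and 1.03 to 6.81 in N (log2 fold change -0.27). The mean log2 CPM of the list was 3.70 in S34, 5.25 in S35 and 5.90 in S36, against 3.31 to 5.02 in N.

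**Figure D3:**
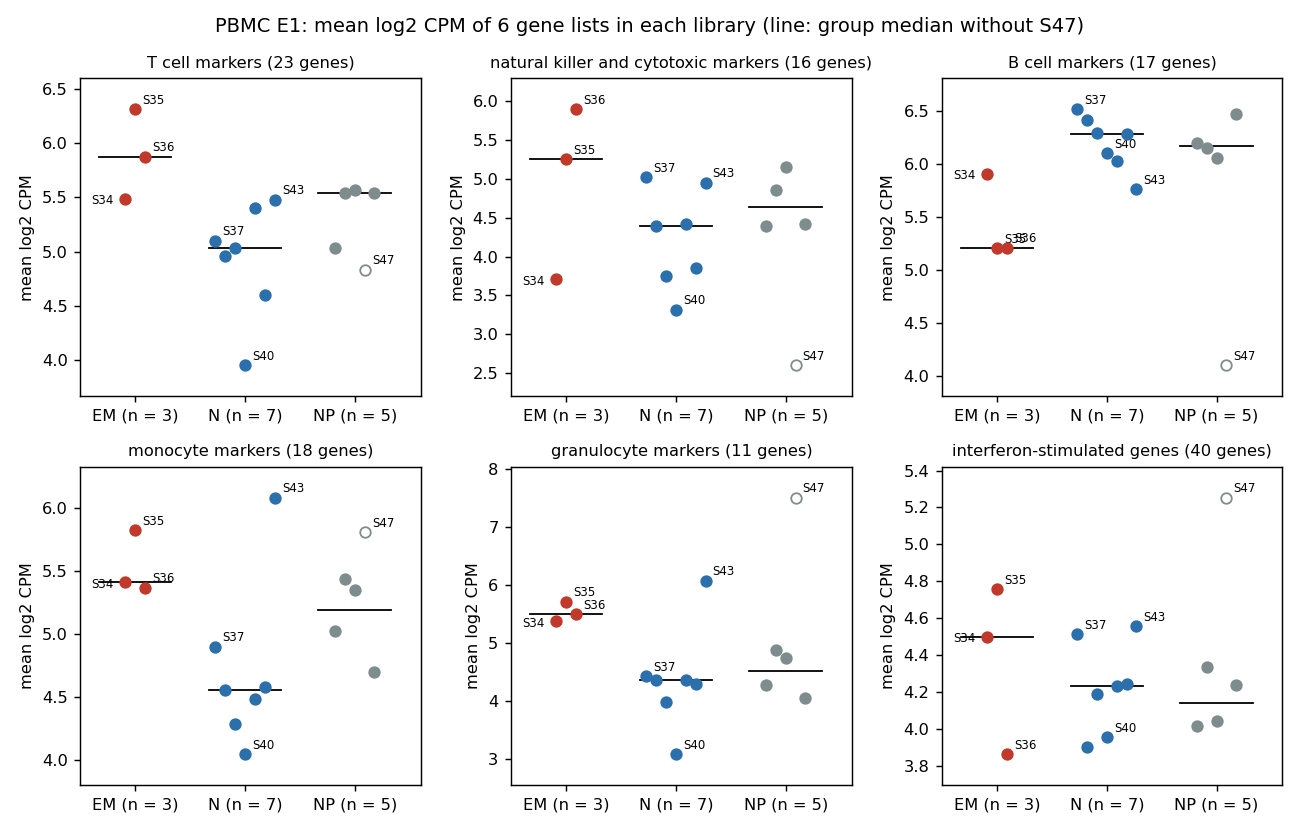
Mean log2 CPM of the tested members of 6 gene lists in each PBMC E1 library, red for EM, blue for N and grey for NP, with S47 drawn as an open circle and a line at each group median without it. T cell markers are at 5.48 to 6.31 in EM and 3.95 to 5.48 in N, and B cell markers at 5.20 to 5.90 in EM and 5.76 to 6.51 in N. The N library S43 lies at or above the EM libraries for monocyte and granulocyte markers.

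Monocyte markers turned on 1 N library. Of 18 tested, 3 had an unadjusted p under 0.05 with higher values in EM (AIF1, CD68 and TLR4) and 0 with lower values. The shares of all genes were 3.65% and 2.94%. The median log2 fold change was 0.70 (1.19 without S43), with 13 members above 0 and 5 below it, CYBB the lowest at -0.69. The mean log2 CPM of the list was 5.41, 5.82 and 5.37 in EM. In N it was 4.05 to 4.90 in 6 libraries and 6.08 in S43, above every EM library. AIF1, a calcium-binding protein of macrophages, had 124.9, 163 and 218 CPM in EM and 27.4, 50.6 and 182.5 in N, the highest being S43. CD14, the lipopolysaccharide co-receptor, had 24.3, 47 and 15.3 CPM in EM and 2.07, 8.16 and 83.4 in N, with 83.4 in S43. Its log2 fold change was 0.74 (edgeR adjusted p = 0.939) with S43 and 2.24 without it. The 16 genes called without S43 included CD14, FCGR3A, IL18RAP, AIF1, S100A10 and the phagocyte genes MERTK and LIPA, all with higher values in EM, and ENSBTAG00000014795. Another of them, ENSBTAG00000022715, had a log2 fold change of 3.53 without S43 and -0.67 with it. Granulocyte markers had a median of 0.69 (1.31 without S43), with 12 of 14 above 0 and 1, ADGRE3, at an unadjusted p under 0.05. The mean log2 CPM of the 11 with a mean of at least 1 CPM was 5.37, 5.71 and 5.49 in EM. In N it was 3.08 to 6.07, with 4.42 the highest value without S43. S100A8 and S100A9, the calgranulins of neutrophils and monocytes, had 176 to 283 and 196 to 349 CPM in EM, and in N 42.9 to 576 and 38.1 to 782, with the highest values again in S43. S43 thus had high levels of monocyte and granulocyte markers together, and the part of these cells in the comparison was not tested.

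Receptors that steer and stimulate leukocytes lay above the median of all genes. Of 17 chemokine receptors 8 had an unadjusted p under 0.05 with higher values, beside 3.65% of all genes, and 0 with lower values, with a median log2 fold change of 0.83 (0.47 without S35). CXCR4, which retains cells in marrow and lymphoid tissue, had 120.1, 112.3 and 65.1 CPM in EM and 22.3, 41.9 and 104.5 in N. Of 30 interleukin and cytokine receptors, 28 were above 0 and 7 had an unadjusted p under 0.05 with higher values, among them IL2RA, IL18RAP and IL7R. Of the ligands, 0 of 10 chemokines (8 of 10 above 0, list median 0.30, 0.56 without S34) and 1 of 12 interleukins (IL18, log2 fold change 1.11) had an unadjusted p under 0.05. Of the 4 chemokines named, CCL4 had the smallest p, with 7.24, 13.4 and 18.9 CPM in EM and 2.28 to 17.4 in N.

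T helper and regulatory genes were read as lists of their own. Of 17 T helper 1 genes 7 had an unadjusted p under 0.05 with higher values (among them IL18RAP, CXCR3, IL18, IL18R1 and IRF1), with a list median of 0.39 (0.17 without S35), beside 2 of 11 T helper 2 and 2 of 14 T helper 17 genes. TBX21, the T helper 1 master factor T-bet, was at -0.38. FOXP3, the defining factor of regulatory T cells, had 1.63, 2.59 and 1.80 CPM in EM and 0.453, 0.710 and 1.21 in N, without overlap (log2 fold change 1.31 ± 0.40, SE; edgeR adjusted p = 0.515). In the list of regulatory and checkpoint genes 4 of 18 had an unadjusted p under 0.05 with higher values (IL2RA, FOXP3, TIGIT and IL10RA), beside 3.65% of all genes, with a median of 0.84 (0.44 without S35). FOXP3 stood at 2.59 CPM or less in each EM and N library, so few reads lie behind its fold change.

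Complement and cell death genes held several genes without overlap. Of 15 complement genes, C2 and C3AR1 had an unadjusted p under 0.05 with higher values and no overlap, beside 3.65% and 0.713% of all genes, and the list median was 0.88 (0.48 without S36). C3, the central component, had 22.8, 34.6 and 32.5 CPM in EM and 5.94 to 35.6 in N. Of 22 apoptosis genes, 3 had no overlap with higher values in EM, FASLG and BCL2A1 among them, beside 0.713% of all genes. FASLG had 3.66, 10.7 and 3.91 CPM in EM and 1.14, 1.95 and 3.39 in N, and the survival gene BCL2A1 had 51.2, 68.9 and 57.6 against 26.1, 42.2 and 48.6.

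Of 30 cell cycle genes, 6 had an unadjusted p under 0.05 with higher values in EM, namely CDC6, BIRC5, TPX2, MKI67, CCNB1 and RRM2. For this and the lists that follow, the shares of all genes were 3.65% with higher and 2.94% with lower values. The median of the cell cycle list was 0.34, but -0.0039 without S36. MKI67, the proliferation antigen Ki-67, had 18.9, 34.5 and 24.6 CPM in EM and 8.61, 13.9 and 26.96 in N, and BIRC5, survivin, had 8.62, 8.93 and 27.1 against 4.30, 5.61 and 10.8. MHC class I and peptide loading genes had a median of 0.24 (0.16 without S36), with 2 of 16 (PDIA3 and B2M) at an unadjusted p under 0.05. B2M, the light chain of class I molecules, had 13606, 17114 and 16144 CPM in EM and 6881, 9201 and 15170 in N. MHC class II genes, which B cells and monocytes express, had a median of -0.29 (-0.47 without S34 and -0.11 without S35), and the 1 member of 13 with an unadjusted p under 0.05, the protease gene LGMN, was higher in EM (log2 fold change 0.85). CD74, the invariant chain, had 9696, 6999 and 8402 CPM in EM and 7245 to 23280 in N. BOLA genes have near-identical copies, so those of this list are uncertain. Ribosomal protein genes had a median of -0.18 (-0.40 without S36 and 0.023 without S35), with 22 of 23 below 0 and 0 at an unadjusted p under 0.05, and nuclear oxidative phosphorylation genes one of -0.12 (-0.28 without S36 and 0.095 without S35), with 0 of 26. Mitochondrially encoded genes had a median of -0.71 (-1.27 without S35 and -0.43 without S36), with 8 of 8 below 0 and 0 at an unadjusted p under 0.05, and their part in the results was not tested.

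Innate sensors, stress hormone targets and death receptors each held a few genes with an unadjusted p under 0.05. Of all genes 3.65% met that threshold with higher values in EM and 2.94% with lower values. Of 20 Toll-like receptor and inflammasome genes, NLRC4, NOD2, TLR4 and NLRP3 met it with higher values. The list median was 0.04 (-0.06 without S34), with 11 members above 0 and 9 below it. NLRC4, an inflammasome sensor, had 4.15, 7.51 and 3.05 CPM in EM and 0.483, 1.29 and 4.12 in N. Of 12 steroid receptor and glucocorticoid target genes, SGK1, FKBP5 and IL1R2 had higher values. FKBP5, a chaperone partner of the glucocorticoid receptor, had 77.3, 259 and 57.1 CPM in EM and 25.4, 46.2 and 105.8 in N, and S35 was the 1 EM library above every N library. The median of that list was 0.39, 0.87 without S43 and 0.12 without S36. Of 26 TNF ligands and receptors, FASLG, TNFSF9, CD27, TNFRSF1B and FAS had higher and TNFRSF13C lower values. Of 9 plasma cell markers PRDM1 and XBP1 had higher and DERL3 lower values, and the list median was 0.22.

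Interferon-stimulated genes, a known response to the conceptus, had values on both sides of 0 in E1. Of 41 tested, 2 had an unadjusted p under 0.05 with higher values in EM (RSAD2 among them) and 1 with lower values (MX1). Both counts were near the shares of all genes, 3.65% and 2.94%. The list median was 0.11 (0.0042 without S35, 0.20 without S36 and 0.18 without S43), with 27 members above 0 and 14 below it. MX1, an antiviral GTPase, had 194, 89.6 and 124.5 CPM in EM and 186, 243 and 510 in N, with a log2 fold change of -1.04 ± 0.32 (SE; edgeR adjusted p = 0.535). RSAD2, the antiviral enzyme viperin, had 8.95, 13.2 and 2.19 CPM in EM and 1.86, 3.87 and 6.69 in N. In RSAD2 S34 and S35 were above every N library and S36 was within the N range. ISG15, the ubiquitin-like modifier, had 28.5, 25.1 and 20.3 CPM in EM and 8.43, 21.2 and 77.5 in N, the highest being S37, and MX2, OAS2, IFI6 and IFI44 had log2 fold changes of 0.51, -0.25, -0.03 and 0.19. The mean log2 CPM of the list was 4.50, 4.76 and 3.86 in EM, 3.90 to 4.56 in N and 4.02 to 4.34 in NP without S47.

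The same contrast in PBMC E2 used other libraries, so its values can be set beside those of E1. In E2 0 of 16269 genes (0%) passed the adjusted threshold of edgeR, with 140 genes (0.861%) at an unadjusted p under 0.05 with higher values in EM and 202 (1.24%) with lower values. DESeq2 called 0, with 159 and 242 at an unadjusted p under 0.05. Of 9975 genes tested in both experiments, 3609 (36.2%) had the same sign. Of the 608 among them with an unadjusted p under 0.05 in E1, 16.8% had the same sign in E2. The share was 18.7% for the 342 with higher values in E1 and 14.3% for the 266 with lower values. Without S47 the shares over all and over the selected genes were 36.4% and 18.4%, and without S43 the latter was 16.4%. Genes of 1 cell type share their libraries, so these shares are descriptions and not counts of independent events.

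**Figure D4:**
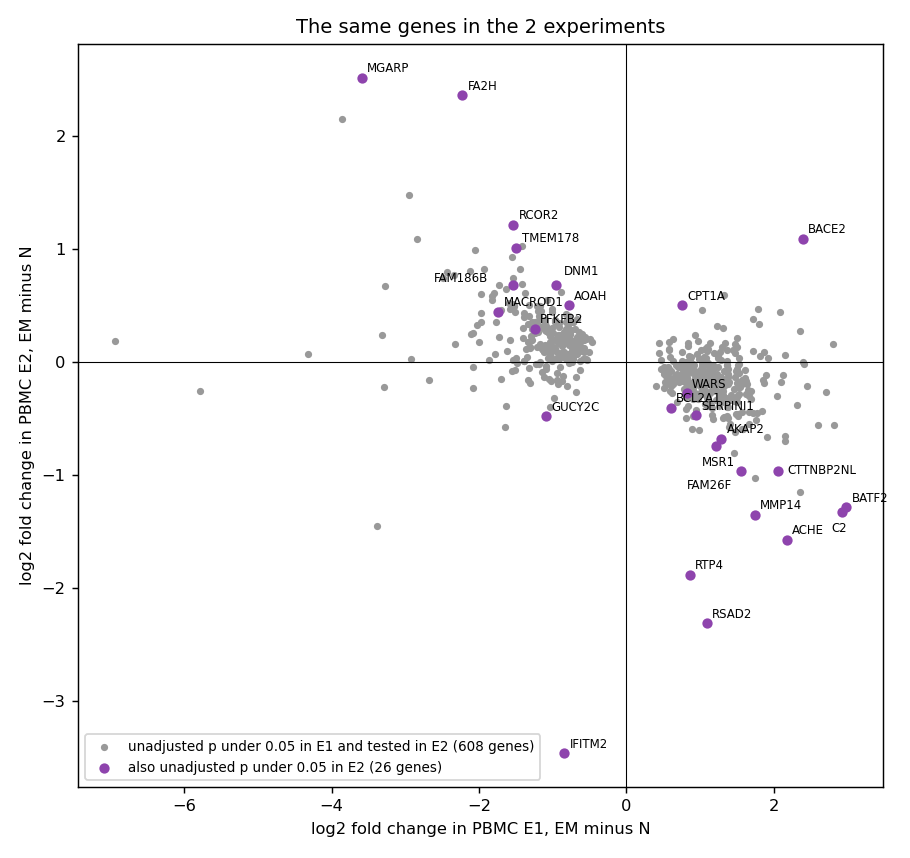
Log2 fold changes of EM minus N in PBMC E1 (horizontal) and PBMC E2 (vertical) for the 608 genes with an unadjusted p under 0.05 in E1 that were tested in E2. The 26 genes in purple also had an unadjusted p under 0.05 in E2, and 4 of them, BACE2, CPT1A, GUCY2C and IFITM2, lie on the same side of 0 in both experiments. Most points lie at the upper left and lower right.

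Both unadjusted thresholds were met by 26 genes, of which 4 had the same sign. BACE2 was higher in EM in both, with log2 fold changes of 2.39 in E1 and 1.09 in E2 (edgeR adjusted p = 0.999 in E2). In E1 it had 0.651, 2.09 and 10.4 CPM in S34, S35 and S36 and 0.366 to 1.65 in N. S34 lay within the N range, and S36 was several times higher than the other EM libraries. C2, with 2.92 in E1, was at -1.33 ± 0.63 in E2 (SE; edgeR adjusted p = 0.999), with 5.27, 25.1 and 40.4 CPM in the 6 EM libraries (lowest, median and highest) and 13.2, 32.6 and 153 in the 9 N libraries. The E2 groups overlapped, with the highest value in an N library. TNFAIP3 was at -0.29 in E2, FCGR3A at -0.46, CD3E at -0.11, CD8A at 0.01, DOC2G at 0.52, AEBP1 at 0.58 and CD248 at 0.80. CD3E had 29.99, 143.4 and 250.1 CPM in EM and 68.9, 142.6 and 214 in N of E2, so the groups overlapped with medians close together.

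Of the 40 list medians, 31 lay above the median of all genes in E1 and 30 lay below it in E2. T cell markers had a median of -0.08 in E2, with 0 of 23 at an unadjusted p under 0.05, and natural killer markers -0.13, with 0 of 16. B cell markers had a median of 0.09, with 13 of 17 above 0 and 1 at an unadjusted p under 0.05 with lower values. Interferon-stimulated genes had 15 of 40 at an unadjusted p under 0.05 with lower values in EM of E2, beside 1.24% of all genes there, and a median of -0.52. ISG15 was at -2.23, RSAD2 at -2.31 and MX1 at -0.40 in E2, each with an edgeR adjusted p of 0.999. ISG15 had 4.12, 13.1 and 48.8 CPM in EM and 4.92, 26.8 and 472 in N of E2, the groups overlapping. Whether the contrast differs between E1 and E2 was not tested. The tables differ in genome build, read length and animals, and these cannot be told apart from the experiment.

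**Figure D5:**
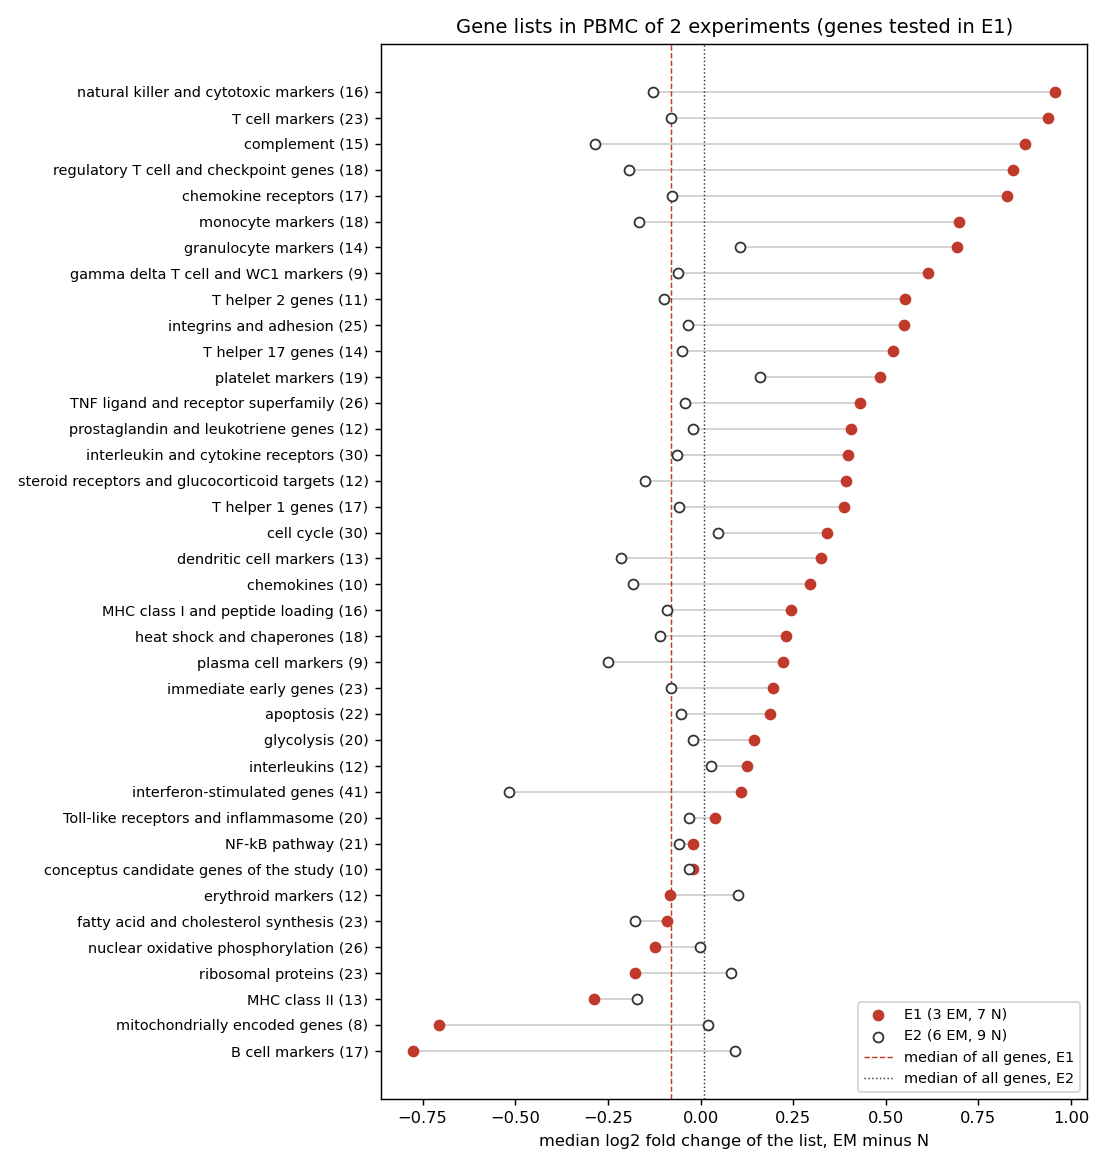
Median log2 fold change of EM minus N over the members of 38 gene lists with at least 5 genes tested in E1, as red points for E1 and open circles for E2, with dashed and dotted lines at the medians of all genes. T cell (0.94 and -0.08) and natural killer markers (0.96 and -0.13) lie highest in E1 and below 0 in E2, B cell markers (-0.78 and 0.09) lie lowest in E1, and interferon-stimulated genes (0.11 and -0.52) lie lowest in E2. Numbers in parentheses are the genes tested in E1.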

How the data were processed

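The authors deposited raw counts per gene for each PBMC library. Per the labels, RNA was extracted with TRIzol, TruSeq Stranded mRNA libraries were made, and E1 reads were aligned to UMD3.1 and E2 reads to ARS-UCD1.2. The aligner and counter are not given in the sources used here. The E1 table had 24616 rows, of which 4629 carry no symbol, and 2 of its per-sample columns were not used.

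Genes were kept with filterByExpr (minimum count 10), scaled with TMM factors and tested with edgeR 4.0.16 (glmQLFit, glmQLFTest, R 4.3.3) over EM, N and NP, with Benjamini-Hochberg adjustment over all genes tested. The standard error is the fold change divided by the root of F. CPM use the TMM-scaled library size, and list levels are means of log2 CPM with a prior count of 2. DESeq2 1.42.0, RLE factors, other filters, EM and N alone and each library left out were alternatives. DESeq2 without S47, DESeq2 with EM and N alone, and overlap counts under other scalings were added after seeing the data. E2 was fitted apart and matched by symbol (9975 genes).

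Named genes were the 12 with the smallest p in each direction (symbol on 1 row, at least 1 CPM), the 10 with the largest fold change without overlap in each direction (at least 5 CPM), up to 4 members of each of 40 lists with the smallest p, and defining blood cell and interferon markers. The members and lists were chosen with earlier results of these data known. On simulated data of 11501 genes for the E1 contrast, edgeR recovered 11% of genes changed by 1 and 62% of those changed by 2 on the log2 scale, with 2 false among 75 calls. DESeq2 recovered 29% and 83%, with 24 false among 136. The simulation drew genes independently and used the unscaled library sizes, that of S47 included. Shared shifts between libraries were not simulated, so recovery and false calls in the real data can differ. Tables were made with Python 3.11.15 and pandas 2.3.3. Genes with near-identical copies (BOLA, JSP.1, OAS, histone, WC1, immunoglobulin and T cell receptor genes) are uncertain. A few members of the lists are counted but not reported here by name.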

Additional observations from a re-analysis of the deposited data

Results flagged for a closer look

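Of 22 checks for a single library far from the rest of its group, 6 found one. Chance gives about 1 in 20 for a single check. Because 5 of the 6 fell on 1 library, the checks are not independent and the count cannot be set against that rate. The N library S43 had a mean log2 CPM of monocyte markers of 6.08, against 4.05 to 4.90 in the other N libraries. The other 5 were in the NP library S47, which entered the fit but not the contrast. Its 10 leading genes held 94.5% of counts, against 10.96% to 15.1% in the other NP libraries. Its mean log2 CPM was 20.7 for mitochondrially encoded genes (others 10.8 to 12.2), 7.502 for granulocyte markers (4.05 to 4.88), 5.25 for interferon-stimulated genes (4.02 to 4.34) and 4.10 for B cell markers (6.06 to 6.47). The TMM-scaled library size of S47 was 352313, against a total count of 9356879. Its CPM values depend on that scaling and are not shares of its counts.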

How the results depend on the processing

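No gene was called by edgeR with Benjamini-Hochberg adjustment in PBMC E1, and leaving out 1 library gave 0 to 16 called genes, with 1 without S34 and 16 without S43. DESeq2 called 6, DESeq2 with EM and N alone 14, and DESeq2 without S47 49, the last 2 chosen after seeing the data. The 758 genes at an unadjusted p under 0.05 became 187 of 3550 tested when at least 10 counts were required in every library, a smaller table by construction, and 310 to 1040 when 1 library was left out, the lowest without S35. Of these genes 55.4% were higher in EM, against 44.7% in DESeq2, 73.2% without S35 and 63.2% without S47. Leaving out 1 library moved the median log2 fold change of B cell markers (-0.78) between -1.08 and -0.57, of natural killer and cytotoxic markers (0.96) between 0.31 and 1.31, of nuclear oxidative phosphorylation genes (-0.12) between -0.28 and 0.095, and of steroid receptors and glucocorticoid targets (0.39) between 0.12 and 0.87. The cause was not tested. Of 181 named genes 170 kept their sign in all 24 alternatives. Many of them were chosen by small p or by lack of overlap in these same libraries. Their sign was therefore largely fixed by the choice, and the count is no measure of robustness. In E2 0 genes were called in each of 18 alternatives. No paired analysis was possible because the labels give every library its own number. With 3 EM libraries, 1 of them can set a value, and at the simulated depth and spread most genes changed by 1 on the log2 scale were missed.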
